A study of Mus musculus with 4 samples.

Results

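The genes described here are 32 factors through which RNA polymerase II passes chromatin: transcription elongation factors, histone chaperones and replacement histones. The rule that picks them is a list of gene names and uses no measured value, although the list was drawn up with earlier results of these data known. All 32 were found among the 23532 genes that the transcripts of the data set sum to. RNA came from Hepa1-6 cells, an established mouse hepatoma line, transduced with lentivirus carrying either a scrambled shRNA (Control, 2 libraries, labelled wild type) or an shRNA against the remodeler gene Chd1 (Chd1KD, 2 libraries, labelled as a knockdown). Cells of both groups were grown in DMEM with fetal bovine serum and selected in puromycin at 4 μg/ml for 3 weeks, and poly(A) RNA was enriched from 10 μg of total RNA. Whether the libraries of a group stem from independent transductions is not stated, so a p-value here reflects only how far these libraries spread, and that spread may be technical.

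RNA polymerase II pauses shortly after it starts a gene. The pause is set by NELF and DSIF and released by the kinase P-TEFb. The polymerase then travels with SPT6, the PAF1 complex and FACT. Of these, SPT6 and FACT are histone chaperones, which help take nucleosomes apart in front of the polymerase and rebuild them behind it. Other chaperones also place histones: HIRA places the variant H3.3 independently of replication, CAF-1 places newly made H3 behind replication forks, and ASF1 hands histones to both. CHD1 is an ATP-dependent remodeler that spaces nucleosomes in transcribed genes. It is known to bind FACT, PAF1 complex and DSIF subunits and to take part in H3.3 deposition, which makes its partners a natural set to read after its knockdown.

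Values are RPKM, reads scaled to transcript length and library size, as deposited by the authors and summed here over the transcripts of a gene. A gene was tested if its mean over the 4 libraries was at least 1 RPKM, which 10209 genes and all 32 described here were. The 32 would also have passed on either group alone. Differences were tested with limma, a linear model that shares information on the spread across genes, on log2(RPKM + 1). A gene passed at a Benjamini-Hochberg adjusted p under 0.05 over all tested genes. Log2 fold changes below are Chd1KD minus Control on the log2(RPKM + 1) scale, and ratios are of group mean RPKM. With 2 libraries against 2, an exact two-sided permutation test of a single gene cannot go below p = 0.333, so none was used.

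Summed RPKM was 459381.5 to 484489.7 per library, and sequencing depth is unknown because low values gave no usable step (the commonest ratio to Control replicate 1 was shared by 29 to 64 of 851 low transcripts). Chd1 measured 21.4 and 22.5 RPKM in Control against 10.4 and 11.3 RPKM in Chd1KD, a ratio of 0.494 (limma, adjusted p = 0.0125, or 0.25 with no filter on low values). Of 8 hepatocyte and hepatoma markers, Alb, Afp, Hnf4a, Krt8 and Krt18 were present in every library. None of these 5 passed, but 3 did not overlap between the groups at an unadjusted p under 0.05: Afp had a ratio of 1.63, Hnf4a 0.783 and Krt18 0.839 (limma, adjusted p = 0.0773, 0.119 and 0.107). Alb stood at 18.6 RPKM in Control replicate 1 and at 42.2 to 55.6 RPKM in the other 3 libraries. The part of these markers in the values below was not tested. Ttr and Serpina1a were listed at 0 in all 4 and Apoa1 did not exceed 0.369 RPKM. All matched markers of macrophages (4), endothelium (5), fibroblasts and stellate cells (5) and lymphocytes (4) had means under 1 RPKM, with summed levels of at most 0.58, 0.092, 0.209 and 0 RPKM in any library.

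None of the 32 genes passed the test (limma, adjusted p under 0.05), where 47 of all tested genes (0.460%) did, 28 higher (0.274%) and 19 lower (0.186%) in Chd1KD. At an unadjusted p under 0.05 there were 5 of the 32, namely Nelfcd, Chaf1b, Asf1b and H3f3a with lower and Aff4 with higher means in Chd1KD. This share, 15.6%, was near that of all tested genes (18.5%, with 7.24% higher and 11.3% lower). The median log2 fold change of the 32 genes was -0.0036, against -0.02 over all tested genes, with 15 above and 17 below 0, where 43.5% of all tested genes were above and 56.5% below. The groups did not overlap for 17 of the 32 genes, 5 with higher and 12 with lower values in Chd1KD, near the 51.8% of all tested genes (21.3% higher, 30.5% lower). The count at an unadjusted p moved with single libraries. It was 11 without Control replicate 2, where 24.2% of all tested genes reached that p, and 3 without Chd1KD replicate 1 (10.2%) or without Chd1KD replicate 2 (11.5%). It was also 3 without a variance trend (18.0%). With the replicate number as a block it was 9 (26.4%), and 1 gene, Nelfcd, passed over all genes, where 3.18% of all tested genes passed. In bulk RNA, fewer cells expressing a gene and less RNA per cell cannot be told apart.

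The intervals limit how large a missed difference between these libraries could be. They rest on the same spread as the p-values, which may be technical, so they may be too narrow for the effect of the knockdown. Group ratios of the 32 genes ran from 0.82 for Nelfcd to 1.15 for Aff4. The 95% intervals are folds of RPKM + 1, and the added 1 draws them slightly toward no change. Those of all 32 lay within 1.5-fold of no change in either direction, from 0.744-fold at the lowest bound to 1.27-fold at the highest. Over all tested genes 94.3% of intervals did so. When each interval was widened to cover 32 genes at once, 28 stayed within 1.5-fold, and those of Nelfcd, Nelfe, Asf1a and Chaf1b reached down to 0.67, 0.63, 0.64 and 0.65-fold. A p that misses the threshold does not show that a gene was equal in both groups.

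**Figure D1:**
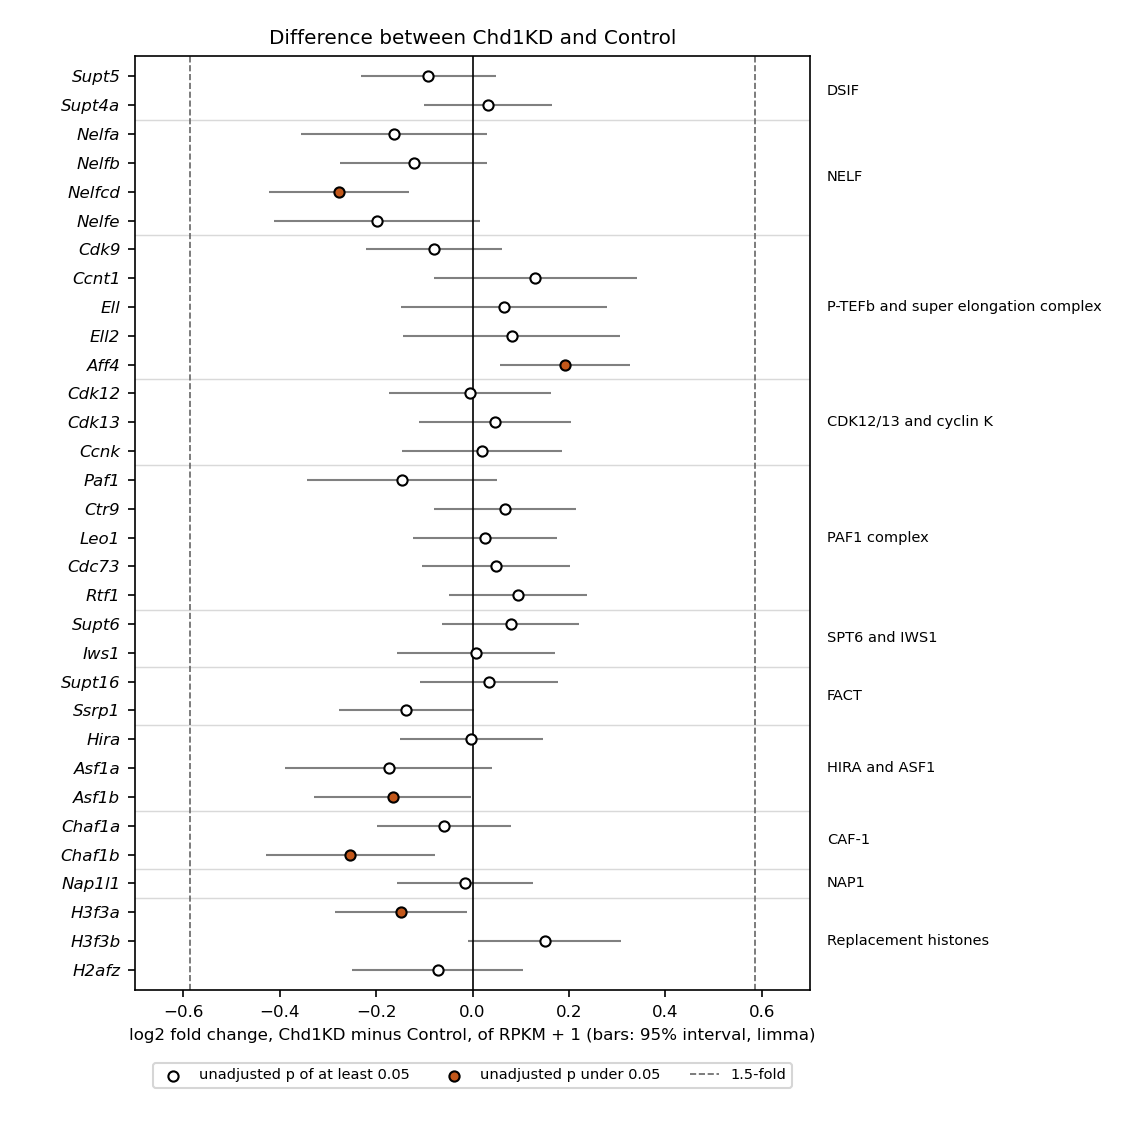
Log2 fold change of RPKM + 1, Chd1KD minus Control, for the 32 genes ordered by complex (circles), with 95% intervals from limma as bars and dashed lines at a 1.5-fold difference. Filled circles mark the 5 genes at an unadjusted p under 0.05, and no bar reaches a dashed line.

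Levels differed far more between the genes than between the groups. Per length, H2afz was the most abundant at up to 552.3 RPKM, followed by H3f3b, H3f3a, Nap1l1 and Ssrp1, all above 146 RPKM in every library. Ell2 was the least abundant, down to 5.86 RPKM, with Iws1 next at 8.38 to 8.83 RPKM. H2afz, H3f3b and H3f3a encode variant histones, whereas ELL2 and IWS1 work with the elongating polymerase, as does SSRP1 within FACT. Why the levels differ was not tested. H3f3a and Nap1l1 overlapped in their library values, so their order is not resolved. Control replicate 1 was above Control replicate 2 for 25 of the 32 genes. Its RPKM summed over all transcripts was also higher, at 484489.7 against 462332.2. The same count over all tested genes was not made.

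**Figure D2:**
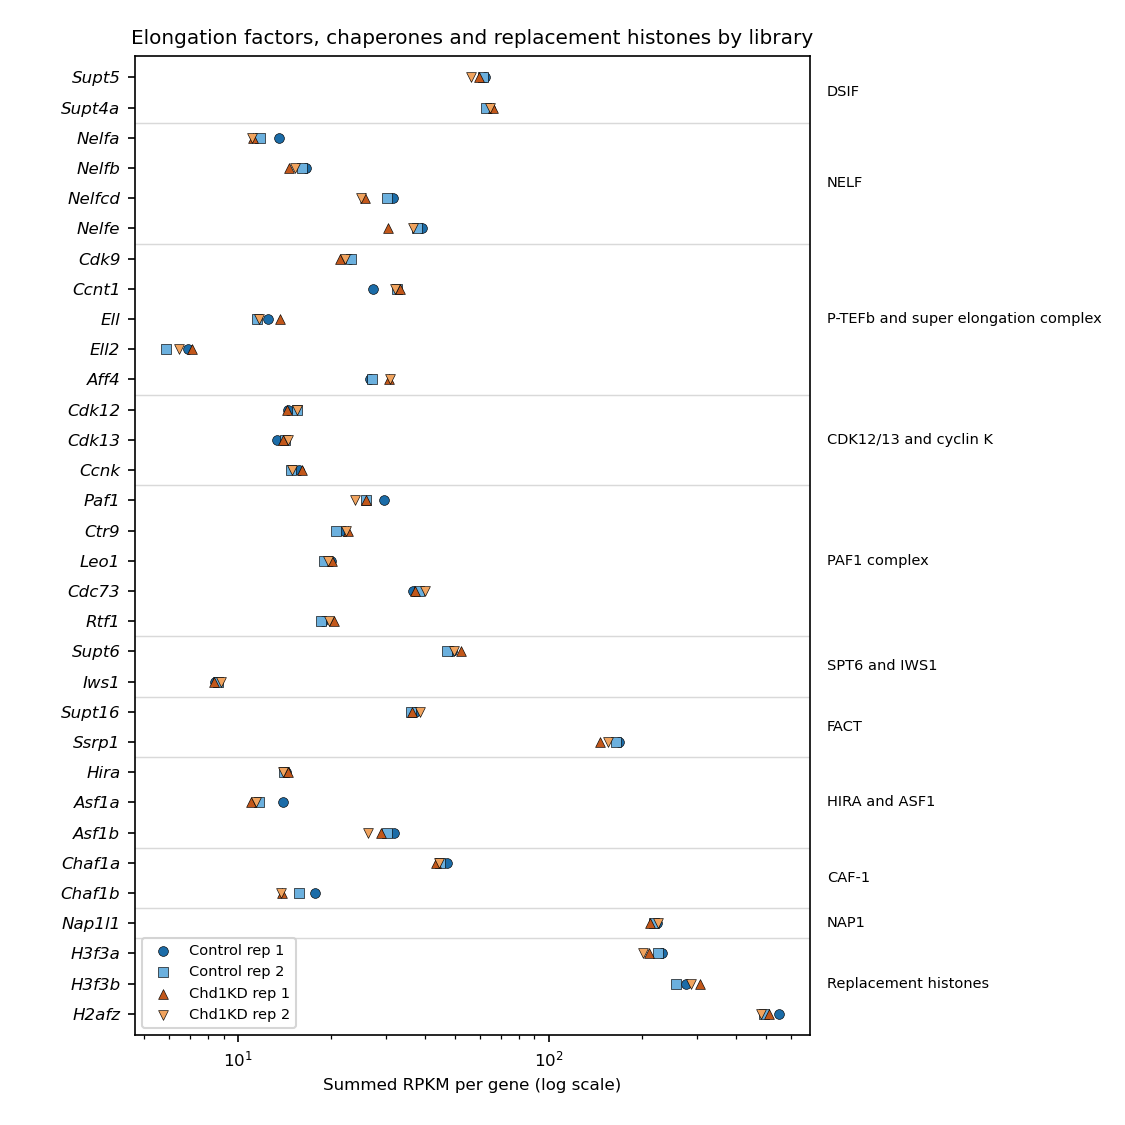
Summed RPKM per gene on a log scale for the 32 genes, 1 symbol per library, ordered by complex. The 4 symbols of a gene lie close together compared with the distance between Ell2 at the low end and H2afz at the high end.

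DSIF, the pair of proteins that both holds the paused polymerase and later helps it along, had 62.5 and 61.4 RPKM of Supt5 in Control and 59.8 and 56.4 RPKM in Chd1KD. Its small subunit gene Supt4a had 64.8 and 62.8 RPKM in Control against 66.1 and 64.5 RPKM in Chd1KD. The groups did not overlap for Supt5 and did for Supt4a, and neither passed (limma, adjusted p = 0.44 and 0.79). Both subunits had nearly the same RPKM in Control, at a Supt5 to Supt4a ratio of 0.963 and 0.977, and the ratio was 0.905 and 0.873 in Chd1KD. Supt4a has a close copy in the mouse genome, Supt4b, listed at 3.73 to 5.3 RPKM, and the authors' counting could have split reads between the copies.

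The 4 subunits of NELF, the complex that holds RNA polymerase II at the pause, each had lower values in both Chd1KD libraries than in either Control library. Nelfcd, which encodes the subunit C/D, measured 31.6 and 30.1 RPKM in Control against 25.7 and 24.9 RPKM in Chd1KD. Its means were 30.9 ± 1.09 and 25.3 ± 0.607 RPKM (SD, n = 2 each). The ratio was 0.82, with a log2 fold change of -0.28, an SE of 0.06 and an adjusted p of 0.104 (limma). The gap between the groups was larger than the gap between libraries of a group, as it was for 12 of the 32 genes in all. That count was not made over all tested genes. Nelfcd did not pass over all genes. Over the alternative settings its adjusted p ran from 0.0471 to 0.362.

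Nelfe, the RNA-binding subunit, had 39.1 and 37.7 RPKM in Control against 30.4 and 36.5 RPKM in Chd1KD. Chd1KD replicate 1 was apart from the other 3 libraries, and without it the log2 fold change moved from -0.20 to -0.07 (and to -0.33 without Chd1KD replicate 2). Nelfa, the subunit that contacts the polymerase, had 13.6 and 11.8 RPKM in Control against 11.2 and 11.1 RPKM in Chd1KD, and its log2 fold change of -0.16 moved to -0.07 without Control replicate 1 and to -0.26 without Control replicate 2. Nelfb, a further core subunit, had 16.62 and 16.04 RPKM in Control against 14.6 and 15.3 RPKM in Chd1KD. The adjusted p of Nelfa, Nelfb and Nelfe was 0.33, 0.35 and 0.29 (limma). Groups that do not overlap with lower values in Chd1KD were found for 30.5% of all tested genes, each taken singly. How often all subunits of a complex do so was not tested.

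The sum of Nelfe hid a difference between its transcripts. Of its 3 RefSeq transcripts, NM_001045863 had 18.6 and 15.2 RPKM in Control against 11.3 and 12.9 RPKM in Chd1KD. NM_001045864, the scarcest, had 4.94 and 4.99 RPKM in Control against 6.71 and 6.28 RPKM in Chd1KD. Its share of all Nelfe RPKM was 12.6% and 13.2% in Control and 22.05% and 17.2% in Chd1KD. The third, NM_138580, overlapped between the groups, with 15.6 and 17.5 RPKM against 12.4 and 17.3 RPKM. In a fit over all 11965 transcripts with a mean of at least 1 RPKM, chosen after the data were seen, the first 2 had log2 fold changes of -0.45 and 0.33 (limma, adjusted p = 0.24 each). In that fit 0 transcripts passed over the whole table, and 1714 (14.3%) had an unadjusted p under 0.05 (limma). The division of reads among transcripts of 1 gene is an estimate of the quantification, not a direct count.

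Among the other genes with several transcripts, Ssrp1 showed how unsteady that division is. NM_001136081 had 82.3 and 69.2 RPKM in Control against 63.1 and 80.6 RPKM in Chd1KD, and NM_182990 had 85.7 and 95.4 RPKM against 83.4 and 75.1 RPKM. The library with more of one transcript had less of the other within each group. The summed value was steadier than either. The transcripts of Cdk12 (3) and Cdk13 (2) overlapped between the groups in every case.

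**Figure D3:**
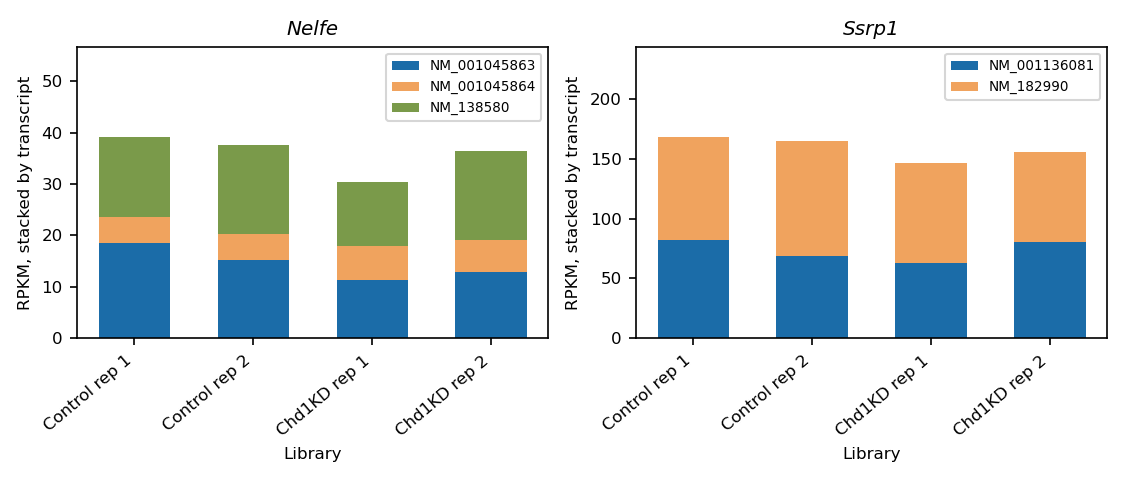
RPKM of each RefSeq transcript of Nelfe (left) and Ssrp1 (right) in the 4 libraries, stacked so that the bar height is the summed RPKM of the gene. The middle Nelfe segment, NM_001045864, is taller in both Chd1KD libraries, and the 2 Ssrp1 segments trade size between libraries of the same group.

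P-TEFb releases the pause by phosphorylating NELF, DSIF and the polymerase. The gene of its kinase, Cdk9, had 22.9 and 23.1 RPKM in Control against 21.3 and 22.1 RPKM in Chd1KD, with no overlap. Its cyclin gene Ccnt1 had 27.2 and 32.5 RPKM in Control against 33.2 and 32.1 RPKM in Chd1KD, where Control replicate 1 alone was low. Neither passed (limma, adjusted p = 0.51 and 0.46). The gap between the Control libraries of Ccnt1, 0.25 on the log2 scale, was the widest Control gap among the 32 genes and exceeded its group difference of 0.13. That difference was 0.01 without Control replicate 1 and 0.25 without Control replicate 2.

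P-TEFb also works inside the super elongation complex, whose scaffold is AFF4 and whose ELL subunits raise the speed of the polymerase. Aff4 measured 26.7 and 27.0 RPKM in Control against 30.7 and 30.9 RPKM in Chd1KD. The 2 libraries of each group differed by less than 0.02 on the log2 scale, and the groups did not overlap. Its log2 fold change of 0.19 had an SE of 0.06, and the gene did not pass (limma, adjusted p = 0.156, from 0.0819 to 0.564 over the alternatives). Ell had 12.5 and 11.5 RPKM in Control against 13.6 and 11.7 RPKM in Chd1KD, and Ell2 had 6.90 and 5.86 RPKM against 7.10 and 6.48 RPKM. Both overlapped between the groups.

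CDK12 and CDK13, with their partner cyclin K, phosphorylate the polymerase during productive elongation. Cdk12 had 14.4 and 15.5 RPKM in Control against 14.4 and 15.5 RPKM in Chd1KD, Cdk13 had 13.4 and 14.2 against 13.9 and 14.5 RPKM, and Ccnk had 15.8 and 14.8 against 16.1 and 14.9 RPKM. The values of the groups interleaved for each of the 3 genes. Their ratios were 0.996, 1.03 and 1.02, and the 95% interval of the Cdk12 fold of RPKM + 1 ran from 0.887 to 1.12.

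The PAF1 complex rides with the polymerase and is needed for histone H2B ubiquitination in transcribed genes. Paf1 had 29.4 and 25.7 RPKM in Control against 25.8 and 23.8 RPKM in Chd1KD, with 1 Chd1KD library above 1 Control library. Its log2 fold change of -0.15 was -0.05 without Control replicate 1, -0.24 without Control replicate 2 and -0.09 without Chd1KD replicate 2. Rtf1, whose protein is known to bind CHD1 in yeast, had 18.8 and 18.5 RPKM in Control against 20.4 and 19.7 RPKM in Chd1KD. Ctr9 had 21.97 and 20.7 against 22.6 and 22.2 RPKM, so that Rtf1 and Ctr9 did not overlap between the groups whereas Leo1 and Cdc73 did. No PAF1 complex gene passed, with adjusted p from 0.38 for Paf1 to 0.86 for Leo1 (limma). Leo1, a subunit that helps the complex hold on to chromatin, had a ratio of 1.02, and Cdc73, also known as parafibromin, had 1.04.

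SPT6 is a histone chaperone of the elongating polymerase, and IWS1 is its partner. Supt6 had 48.9 and 47.1 RPKM in Control against 52.1 and 49.4 RPKM in Chd1KD, which did not overlap (limma, adjusted p = 0.51). Iws1 had 8.44 and 8.66 against 8.38 and 8.83 RPKM, with Control inside the range of Chd1KD.

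FACT, a dimer of the SPT16 and SSRP1 proteins, removes and restores H2A-H2B dimers. Supt16 had 37.0 and 36.0 RPKM in Control against 36.4 and 38.5 RPKM in Chd1KD, and overlapped. Ssrp1 had 168.0 and 164.6 RPKM in Control against 146.5 and 155.8 RPKM in Chd1KD, and did not (log2 fold change -0.14, limma, adjusted p = 0.28). Per length, the Ssrp1 message exceeded that of its partner in every library, with a Supt16 to Ssrp1 ratio of 0.22 and 0.219 in Control and 0.248 and 0.247 in Chd1KD. Supt16 shares 1057 exon bases with Rpgrip1 on the opposite strand. Whether strand was used in counting is not given, so in the shared bases reads of the 2 genes cannot be told apart here.

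The 2 H3.3 genes had opposite differences. H3f3a (chromosome 1, 180802560 to 180813605, mm10) and H3f3b (chromosome 11, 116021961 to 116026039) both encode the replacement histone H3.3, the form of H3 that is put into chromatin outside replication. Their coding sequences in GENCODE M21 are 408 bases without the stop codon and differ at 95 bases (76.7% identical), yet translate to the same 136 residues with 0 differences. They are shown because reads can be assigned to 1 of the 2 genes only where the letters differ. The first 120 coding bases, from the start codon and read 5′ to 3′, follow in lower case, with the 24 bases that differ in capitals.
H3f3a: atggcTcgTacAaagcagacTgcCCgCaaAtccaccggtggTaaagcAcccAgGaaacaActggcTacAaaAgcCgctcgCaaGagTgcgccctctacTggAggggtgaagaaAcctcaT
H3f3b: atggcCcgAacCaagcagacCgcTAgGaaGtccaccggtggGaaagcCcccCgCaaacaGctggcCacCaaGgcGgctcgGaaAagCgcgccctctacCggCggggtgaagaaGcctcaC
The differing bases are spread over the whole stretch, so a read of ordinary length covers several of them. Exons of H3f3a also overlap 2 noncoding genes on the opposite strand, Gm17275 and H3f3aos. In the overlaps, their reads cannot be told apart from those of H3f3a without the strand. Processed pseudogenes of these genes exist in the mouse genome and may take or give reads.

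H3f3a measured 232.2 and 225.1 RPKM in Control against 210.6 and 201.6 RPKM in Chd1KD. H3f3b measured 277.2 and 257.5 RPKM in Control against 306.7 and 286.7 RPKM in Chd1KD. Neither gene overlapped between the groups, and neither passed over all genes: the log2 fold changes were -0.15 and 0.15, with SEs of 0.06 and 0.07 and adjusted p of 0.24 and 0.29 (limma). Without Control replicate 2 the H3f3b fold change was 0.10. The ratio of H3f3a to H3f3b within a library, on which no scaling of whole libraries bears, was 0.838 and 0.874 in Control and 0.687 and 0.703 in Chd1KD, or 0.856 ± 0.026 and 0.695 ± 0.0116 (SD, n = 2 each). The difference in the log2 ratio was -0.30, and -0.33 to -0.27 when each library was left out in turn. The sum of both genes was 509.4 and 482.6 RPKM in Control against 517.3 and 488.4 RPKM in Chd1KD. These sums overlapped between the groups, whereas the ratios did not. This ratio was singled out after its values were seen, and it has no test of its own.

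**Figure D4:**
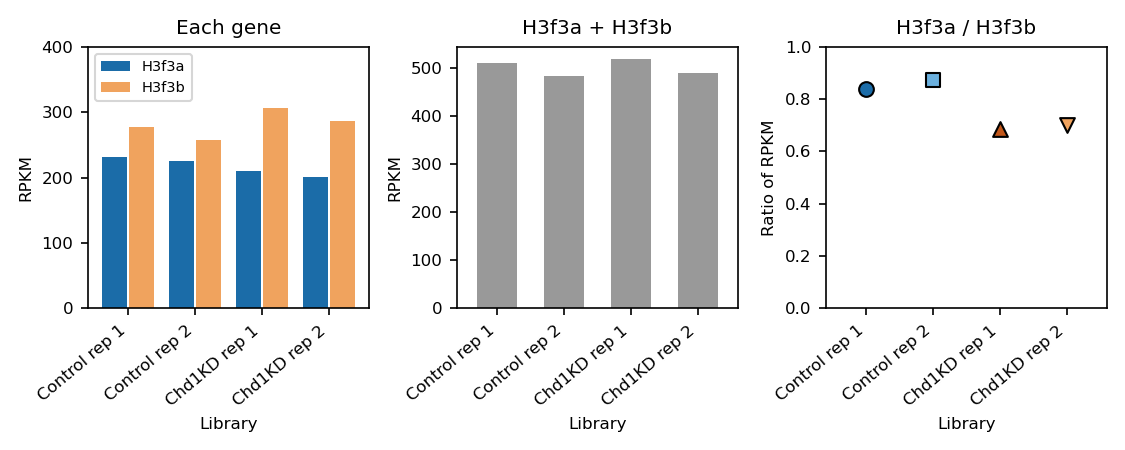
RPKM of H3f3a and H3f3b in the 4 libraries (left), their sum (middle) and the ratio of H3f3a to H3f3b (right). The ratio lies at 0.838 and 0.874 in Control and at 0.687 and 0.703 in Chd1KD, while the sums of the groups overlap.

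For comparison, within-library ratios were formed for 7 other pairs of partners or paralogs. The groups overlapped for Asf1a to Asf1b and for Ell to Ell2. They did not for Chaf1a to Chaf1b (2.67 and 2.84 in Control, 3.14 and 3.21 in Chd1KD), Ccnt1 to Cdk9, Supt16 to Ssrp1, Supt5 to Supt4a and Cdk12 to Cdk13. The difference in the log2 ratio was 0.22 in size for Ccnt1 to Cdk9, the largest of these 7 pairs, against 0.30 for the H3.3 genes. Ratios were not formed over gene pairs in general, so how usual such differences are was not tested. H2afz, the gene of H2A.Z, a variant found in nucleosomes at promoters, had 552.3 and 494.7 RPKM in Control against 511.6 and 483.0 RPKM in Chd1KD, and the groups overlapped.

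CAF-1 loads H3 and H4 onto newly replicated DNA. Its middle subunit gene Chaf1b measured 17.6 and 15.8 RPKM in Control against 13.8 and 13.8 RPKM in Chd1KD. Group means were 16.7 ± 1.33 and 13.8 ± 0.0233 RPKM (SD, n = 2 each). The ratio was 0.828, with a log2 fold change of -0.25, an SE of 0.07 and an adjusted p of 0.154 (limma). Across the alternative settings the adjusted p ran from 0.0646 to 0.453. Its large subunit gene Chaf1a had 47.0 and 44.7 RPKM in Control against 43.5 and 44.4 RPKM in Chd1KD, a ratio of 0.958 (limma, adjusted p = 0.61). The groups overlapped for neither gene. Chaf1a shares 4648 exon bases with Ubxn6 on the opposite strand, so its reads are the less certain of the pair.

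Both CAF-1 promoters carry letters of the E2F core, a site of the factors that drive S phase genes, and are shown for that reason. They are the 250 bases before the RefSeq start (GRCm38.p6, plus strand), chr17:56040166-56040415 for Chaf1a and chr16:93883651-93883900 for Chaf1b. Capitals mark matches, on either strand, to the E2F core GCGGGAA, the CCAAT box CCAAT or the GC box GGGCGG.
Chaf1a: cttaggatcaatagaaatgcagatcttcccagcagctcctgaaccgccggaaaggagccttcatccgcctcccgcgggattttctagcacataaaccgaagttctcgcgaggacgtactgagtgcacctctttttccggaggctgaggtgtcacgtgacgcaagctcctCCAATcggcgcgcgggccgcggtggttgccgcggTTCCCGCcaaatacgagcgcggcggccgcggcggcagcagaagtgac
Chaf1b: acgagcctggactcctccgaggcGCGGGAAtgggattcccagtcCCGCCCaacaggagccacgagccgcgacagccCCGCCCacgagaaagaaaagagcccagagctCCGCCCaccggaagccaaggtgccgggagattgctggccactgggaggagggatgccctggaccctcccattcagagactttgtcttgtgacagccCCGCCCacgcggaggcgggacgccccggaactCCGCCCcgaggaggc
Chaf1a held 1 E2F core and 1 CCAAT box, and Chaf1b held 1 E2F core and 5 GC boxes. Of 28 of the genes with a promoter in the RefSeq table, 4 had the E2F core (Chaf1a, Chaf1b, Nap1l1 and 1 of the 2 starts of Ssrp1), 11 the CCAAT box and 22 the GC box. Over all 32851 promoter windows of that length the shares were 3.82%, 33.8% and 32.7%. Those windows include genes that these cells do not express and are counted singly, whereas the 28 genes are all expressed and counted once each. The shares are therefore not a like comparison. For Cdk9, Ccnt1, Supt6 and Ell2 all 250 bases lie in exons of the gene itself in GENCODE M21. Matches to the E2F core and the GC box can share letters. A match is a description of these letters and says nothing of binding.

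ASF1 passes H3-H4 dimers to CAF-1 and HIRA. Asf1b, the form linked to dividing cells, had 31.7 and 30.3 RPKM in Control against 28.8 and 26.3 RPKM in Chd1KD (log2 fold change -0.17, limma, adjusted p = 0.27). Asf1a had 13.9 and 11.7 RPKM in Control against 11.0 and 11.4 RPKM in Chd1KD (log2 fold change -0.17, limma, adjusted p = 0.35), with Control replicate 1 apart from the other 3 libraries. Without Control replicate 1 the Asf1a fold change was -0.06, without Control replicate 2 it was -0.29, and the Asf1b fold change was -0.10 without Chd1KD replicate 2. The groups overlapped for neither, although the closest Asf1a values, 11.7 and 11.4 RPKM, nearly met. Asf1a also shares 1748 exon bases with Mcm9 on the opposite strand. Hira, the H3.3 chaperone, had 14.3 and 14.1 against 14.5 and 14.0 RPKM, a ratio of 0.999 whose sign turned under other scalings. Nap1l1, a chaperone of H2A-H2B, had 222.5 and 218.6 against 211.4 and 224.9 RPKM, a ratio of 0.989.

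Genes of S phase, when CAF-1 and ASF1 are most in use, were read beside them. Of 18 genes of DNA replication, 0 passed over all genes (limma) and 11 had an unadjusted p under 0.05, all with lower means in Chd1KD, where 11.3% of all tested genes had that. Their summed level was 1329.2 and 1228.7 RPKM in Control against 1094.5 and 1087.0 RPKM in Chd1KD. The smallest p belonged to Pold1, Cdt1, Pola2 and Mcm3, with log2 fold changes of -0.33, -0.33, -0.31 and -0.32 and adjusted p of 0.0757 to 0.0833 (limma). Pold1, Cdt1 and Mcm3 passed without Control replicate 2, and all 4 passed with the replicate number as a block (adjusted p = 0.0338 to 0.0381). This list and the variant histones below were drawn up with earlier results of these data known. The part of the S phase genes in the values of the chaperones was not tested.

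The remaining genes of these pathways were read from lists of further elongation factors, chaperones and variant histones. Of 27 tested elongation factors, 0 passed and 2 had an unadjusted p under 0.05 (limma), against 0.460% and 18.5% of all tested genes, with a median log2 fold change of -0.02. These were Hexim1, an inhibitor that holds P-TEFb in the 7SK particle, at 21.1 ± 0.358 RPKM in Control and 18.8 ± 0.543 in Chd1KD, and Mllt3, a YEATS domain reader of the super elongation complex, at 9.99 ± 0.637 and 11.4 ± 0.0796 RPKM (SD, n = 2 each). The other 3 elongation factors, Ell3, Tcea2 and Eaf2, had means under 1 RPKM and were not tested.

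Of 20 further chaperones, 0 passed and 2 (10.0%) had an unadjusted p under 0.05 (limma), below the 18.5% of all tested genes, with a median log2 fold change of -0.04. They were Tonsl, which reads new histone H4 at replication forks, at a ratio of 0.764, and Nasp, a chaperone of the H3-H4 store, at 0.873. Of 6 tested variant histones, 0 passed and 4 had an unadjusted p under 0.05 (limma), all with lower means in Chd1KD. H1fx passed with the replicate number as a block (limma, adjusted p = 0.0346). The 4 were H1fx at a ratio of 0.787, H2afx, which is phosphorylated at DNA breaks, at 0.851, H2afv, the second H2A.Z gene, at 0.854, and H1f0, a linker histone of resting cells, at 0.893. The list is short. All 6 tested genes had lower values in both Chd1KD libraries, as 30.5% of all tested genes did, and its median log2 fold change was -0.19. By unadjusted p, 11.3% of all tested genes had lower means in Chd1KD.

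**Figure D5:**
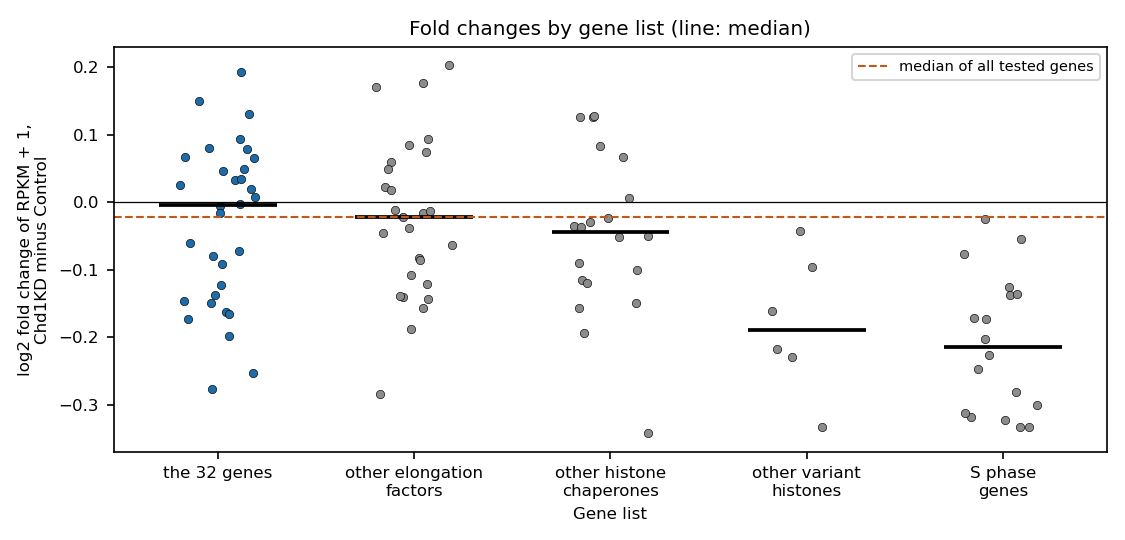
Log2 fold change of RPKM + 1, Chd1KD minus Control, for each tested gene of the 32 described here and of 4 further lists, with the median of each list as a black line and the median of all tested genes (-0.02) as a dashed line. The 32 genes spread around the dashed line, and all tested variant histones and S phase genes lie below 0.

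Of the 32 genes, 14 share exon bases with another gene in GENCODE M21, and for 9 of them that gene is protein-coding: Supt6, Supt16, Ssrp1, Cdc73, Nelfa, Nelfcd, Hira, Asf1a and Chaf1a. For Nelfcd the shared stretch is 10 bases, with Ctsz on the opposite strand. Exons of all GENCODE M21 transcripts of a gene were pooled for this, and the counted RefSeq transcripts may hold fewer of the shared bases. Nelfcd lies on chromosome 2 from 174415804 to 174427505 and Aff4 on chromosome 11 from 53350640 to 53421830. Asf1b lies on chromosome 8 from 83955694 to 83970195 and Chaf1b on chromosome 16 from 93883900 to 93906115. These positions are from NCBI's GRCm38.p6 table (mm10), where all 4 are protein-coding. Aff4, Asf1b and Chaf1b share no exon base with another gene in GENCODE M21.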

How the data were processed

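Per the file headers, the deposited values are RPKM, with 1 row for each of 30582 RefSeq transcripts. The submitters' processing notes name the mm10 build, TopHat 1.4.1 and Cufflinks 1.3.0. The sources used here do not give the annotation, the strand setting or how RPKM was filtered and scaled. Each of the 4 single-library tables matched the series table. Symbols came from NCBI's GRCm38.p6 table (30003 rows) and GENCODE M21 (180 more), 399 rows kept their accession, and RPKM was summed per gene. H2afz was matched through a newer symbol.

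The tested genes (mean RPKM of 1 or more) entered 1 fit in limma 3.58.1 (R 4.3.3), with values as log2(RPKM + 1), a trend of variance with mean, and neither covariate nor block. RPKM carries no counts, so no count model and no counting interval was used. Widened intervals used a Bonferroni correction over the 32 genes. The genes and lists were chosen with earlier results of these data known. All 32 genes are named. From each further list, up to 4 genes with the smallest unadjusted p under 0.05 are named. Alternatives covered the pseudocount, filter, scaling, variance model, replicate number, transcript choice, threshold and each library left out. The transcript fit, the widened intervals, the H3f3a to H3f3b ratio and the count at an unadjusted p were added after the data were seen.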

Additional observations from a re-analysis of the deposited data

How the results depend on the processing

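None of the 32 genes passed in any alternative fit except that with the replicate number as a block, where 1 did (Nelfcd, limma, adjusted p = 0.0471). That replicate block called 325 genes in all and put 9 of the 32 at an unadjusted p under 0.05. The deviations of the replicate 1 libraries correlated across genes at 0.22. Libraries correlated at 0.9922 within Control and 0.9948 within Chd1KD. Across the groups the correlation was 0.994 for the replicate 2 libraries and 0.9898 for the replicate 1 libraries. The Control libraries were thus less alike than the replicate 2 libraries of the 2 groups. The labels state no pairing and there are only 2 pairs, so whether the numbers pair the libraries was not settled. With the threshold at an adjusted p under 0.1, 205 genes and 0 of the 32 passed. Without a low-value filter the count over all genes was 0 (limma, 2153 at an unadjusted p under 0.05), where Chd1 also lost its call (adjusted p = 0.25). It was 71 with a minimum mean of 5 RPKM, 6 without a trend, 92 with a robust trend, 12 with the most abundant transcript, and 49 (without Chd1KD replicate 1) to 236 (without Control replicate 2) with 1 library left out. The count of the 32 at an unadjusted p was 3 without a trend and 3 (without either Chd1KD library) to 11 (without Control replicate 2) in the same way. The cause of these shifts was not tested. Signs turned for 11 genes in all. Under quantile normalization the log2 fold changes of Hira, Nap1l1 and Cdk12 were 0.0092, 0.0194 and 0.0053, and under median scaling those of Hira and Cdk12 were 0.0083 and 0.0052. With 1 library left out, log2 fold changes ran from -0.0062 to 0.0738 for Supt16, -0.0093 to 0.0618 for Leo1, -0.0037 to 0.102 for Cdc73, -0.0256 to 0.0414 for Iws1, -0.0383 to 0.1687 for Ell, -0.0209 to 0.1828 for Ell2, -0.0254 to 0.0213 for Hira, -0.0609 to 0.0282 for Nap1l1, -0.1517 to 0.0067 for H2afz, -0.0535 to 0.0432 for Cdk12 and -0.0288 to 0.0693 for Ccnk. A fit without 1 library assumes that the lone library of a group varies like the others. Depth is unknown, so its limit on these values cannot be given.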
